A study of Mus musculus with 18 samples.

Results

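Line 42-2 is a mouse pancreatic ductal adenocarcinoma (PDAC) line grown from a liver metastasis, in which Gstt1 was targeted although its transcript was already low. It was chosen by its Gstt1 level: both of its non-targeting (NT) controls lay below 3 CPM (reads of a gene scaled to the depth of its library), and the NT controls of the other 5 lines lay at 24.3 to 52.5 CPM. It supplied 4 of the 18 RNA-seq libraries of the study, 2 NT controls and 2 Gstt1 knockdowns. The first pair is an NT control with Gstt1 shRNA 1 and the second pair an NT control with Gstt1 shRNA 2; the members of a pair carry the same library code, and each hairpin was used once in this line. All 4 libraries share 1 genotype label, which names SIRT6F/F and p48 among its alleles, so the controls carry these alleles too. Cells were infected with lentivirus, held in puromycin for 48 h and harvested after the next split. Whether libraries come from separate cultures is not said in the labels, so p-values measure only the spread between these libraries. The values describe 1 line and cannot be taken for liver metastases at large.

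Gstt1 encodes a theta-class glutathione S-transferase. Enzymes of this family join glutathione to electrophilic compounds, and theta-class members are cytosolic enzymes known for their action on small halogenated substrates and peroxides. The comparison addresses which transcripts differ when hairpins against Gstt1 enter cells that hold little of it.

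Gstt1 itself (ENSMUSG00000001663) was lower in each knockdown than in its own control. In the first pair it was at 2.67 CPM in the NT control (54 reads) and 0.373 CPM with shRNA 1 (5 reads), 14% of control with a 95% exact interval of 4.37% to 34.7%. In the second pair it was at 0.616 CPM in the NT control (8 reads) and 0.0687 CPM with shRNA 2 (1 read), 11.2% of control with an interval of 0.251% to 83.2%. The intervals cover counting error only. On the log2(CPM + 1) scale, which understates differences of low genes, the pairs differed by -1.42 and -0.60, and the 6 culture sets of the other lines differed by -3.95 on average (range -5.30 to -1.86). The sets of 6-3 and G45-2 are means over 2 hairpins, and shRNA 1 left much Gstt1 in both. In 6-3 Gstt1 was at 25.4 CPM in the NT control, 19.2 with shRNA 1 and 0.250 with shRNA 2. In G45-2 it was at 43.8, 23.9 and 5.15 CPM. Gstt3, another theta-class gene, went opposite ways: 2.82 CPM in its NT control and 9.70 CPM with shRNA 1 (345% of control, interval 250% to 479%), and 2.31 CPM in its NT control and 0.412 CPM with shRNA 2 (17.9%, interval 6.08% to 43.6%). Gstt3 was lower in all 6 sets of the other lines, by 3.08 on average. Gstt2 was at 1.53 and 0.970 CPM in the first pair and at 0.616 and 0 CPM in the second, and Gstt4 was listed at 0 in all 4 libraries.

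The pairs differed in how closely a knockdown resembled its own control, which bears on every result below. The second pair was the most alike of all 10 knockdown and control comparisons in the study, with a Pearson r across genes of 0.965 and 1106 of 12931 genes (8.55%) at least 2-fold apart on the log2(CPM + 1) scale. The 8 comparisons in other lines gave an r of 0.772 to 0.927 and 2373 to 6077 genes. The first pair gave an r of 0.765, the lowest of the 10, and 5771 genes (44.6%). Among its 17 possible partners the shRNA 1 library ranked its own control last. Its closest library was shRNA 1 of the lung-metastasis line 6-2 (r of 0.919), before both libraries of the second 42-2 pair (r of 0.891 for each). Its control was closest to the NT control of line 13-2 (0.897). These r values are across genes, which are not independent replicates. Depth was 20237530 and 13396705 reads in the first pair and 12987323 and 14549282 in the second, so that 3 reads equal 0.148 to 0.231 CPM.

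**Figure D1:**
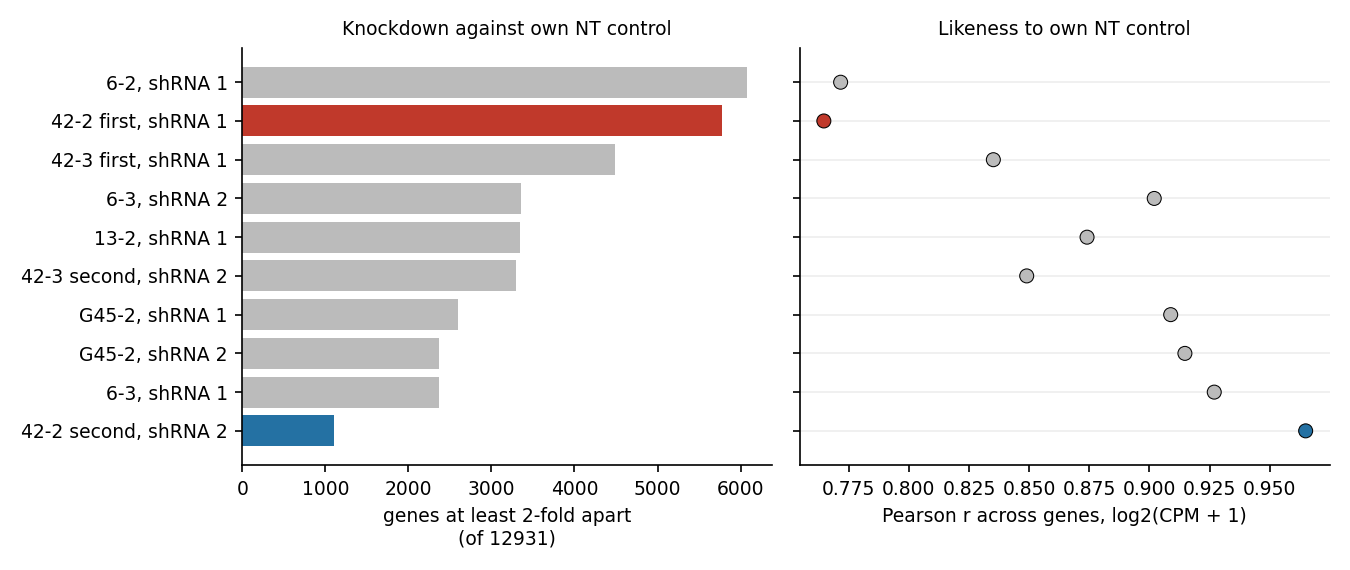
Genes at least 2-fold apart between each knockdown and its own NT control (left, bars, number of 12931 genes) and Pearson r between the same libraries across genes on log2(CPM + 1) values (right, points). The second 42-2 pair (blue) holds the fewest genes, 1106, and the first 42-2 pair (red) has the lowest r, 0.765.

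Transcripts that mark a culture also differed. Xist, the non-coding RNA of the silenced X chromosome, was at 0.0494 and 0.149 CPM in the first pair and at 41.7 and 74.3 CPM in the second. Y-linked Ddx3y was at 3.46 CPM in the first NT control and 0 with shRNA 1 (70 reads against 0), and at 3.00 CPM in the second NT control and 0.0687 with shRNA 2. Eif2s3y, Kdm5d and Uty were likewise lower in both knockdowns, at most 0.224 CPM there and 0.593 to 4.08 CPM in the controls. The neighbouring cell cycle inhibitors Cdkn2a and Cdkn2b separated only the first pair: Cdkn2a was at 134 CPM in its NT control and 5.23 with shRNA 1, against 91.0 and 121 CPM in the second pair, and Cdkn2b was at 175 and 8.43 CPM, against 81.8 and 85.4 CPM. These values put in doubt whether the libraries labelled as the first pair hold the same culture as each other and as the second pair. The libraries of the second pair differed too. Eif2s3y was at 53 reads in its NT control and 1 with shRNA 2 (1.68% of control, interval 0.0419% to 9.80%). Xist was at 178% of control there (interval 160% to 198%). Whether the second pair holds 1 culture was not tested either. A library's identity could not be tested further, so values of both pairs stand for the libraries so labelled. Each result is given for each pair.

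Marker genes were compared with the label of tumour cells. All 6 epithelial tumour markers (Epcam, Cdh1, Krt8, Krt18, Krt19, Krt7) were at or above 1 CPM in every library, with a summed level of 2344 and 2006 CPM in the first pair and 400.5 and 263 CPM in the second. Ptprc, the pan-leukocyte marker, was at most 0.741 CPM. Of the 9 fibroblast markers in the table, the summed level was 196 and 30.1 CPM in the first pair and 2923 and 6464 CPM in the second, where nearly all of it was Col3a1, a fibrillar collagen (23.4 and 1.12 CPM in the first pair, 2681 and 6083 CPM in the second). The summed level of 6 pericyte and smooth muscle markers was 815 and 37.8 CPM, then 335 and 623 CPM. That of 5 leukocyte markers was 764 and 39.6 CPM, then 109 and 20.6 CPM, in the NT controls mostly the lipopolysaccharide co-receptor Cd14. The sum over 7 endothelial markers was 2.27 to 13.2 CPM. Among 6 hepatocyte markers the first NT control alone held much, 662 CPM of Apob, with Ttr at 0 in all 4 libraries, and Msln was at 1948 CPM in that library and at 128 to 164 CPM in the others. In bulk RNA, fewer cells of a type and less RNA per cell cannot be told apart.

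With 2 libraries a side, no gene passed a test across both pairs. In a limma model with the pair as a block, 0 of 11981 genes (0%) had an adjusted p of 0.05 or less; at an unadjusted p under 0.05 there were 578, and the smallest adjusted p was 0.384. edgeR's quasi-likelihood test on the recovered reads also called 0 and had 459 at an unadjusted p under 0.05. When the spread was taken from all 18 libraries, leaving out the second pair gave 18 calls in limma (7 higher, 11 lower) and leaving out the first gave 0 (85 at an unadjusted p under 0.05). All that follows is therefore a description of 4 libraries, by size: a gene counts as higher or lower in a pair when it was at least 2-fold apart on the log2(CPM + 1) scale. Levels are given as NT control and then knockdown, for the first pair and then the second.

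By that measure 2759 genes (23%) were higher and 2463 (20.6%) lower with shRNA 1 in the first pair, and 366 (3.05%) were higher and 719 (6%) lower with shRNA 2 in the second. Both pairs together held 430 genes that were lower (3.59%) and 99 that were higher (0.826%), and 251 (2.09%) went opposite ways. Of the genes lower in the second pair, 59.8% were also lower in the first; of those lower in the first, 17.5% were also lower in the second. Of the genes higher in the second pair, 27.0% were also higher in the first, and 30.6% were lower there. More of the shared genes were thus on the lower side than on the higher. Median-ratio rescaling of the libraries moved the median of all genes in the first pair from 0.10 to -0.04 and left that of the second near 0 (-0.02 and -0.01). Just inside the lower limit was Zfp286 (-3.72 and -1.0007) and just outside it Cxcl16 (-3.04 and -0.99977); Fmn1 (1.27 and 1.01) was just inside the upper limit and Sltm (1.92 and 0.99995) just outside.

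**Figure D2:**
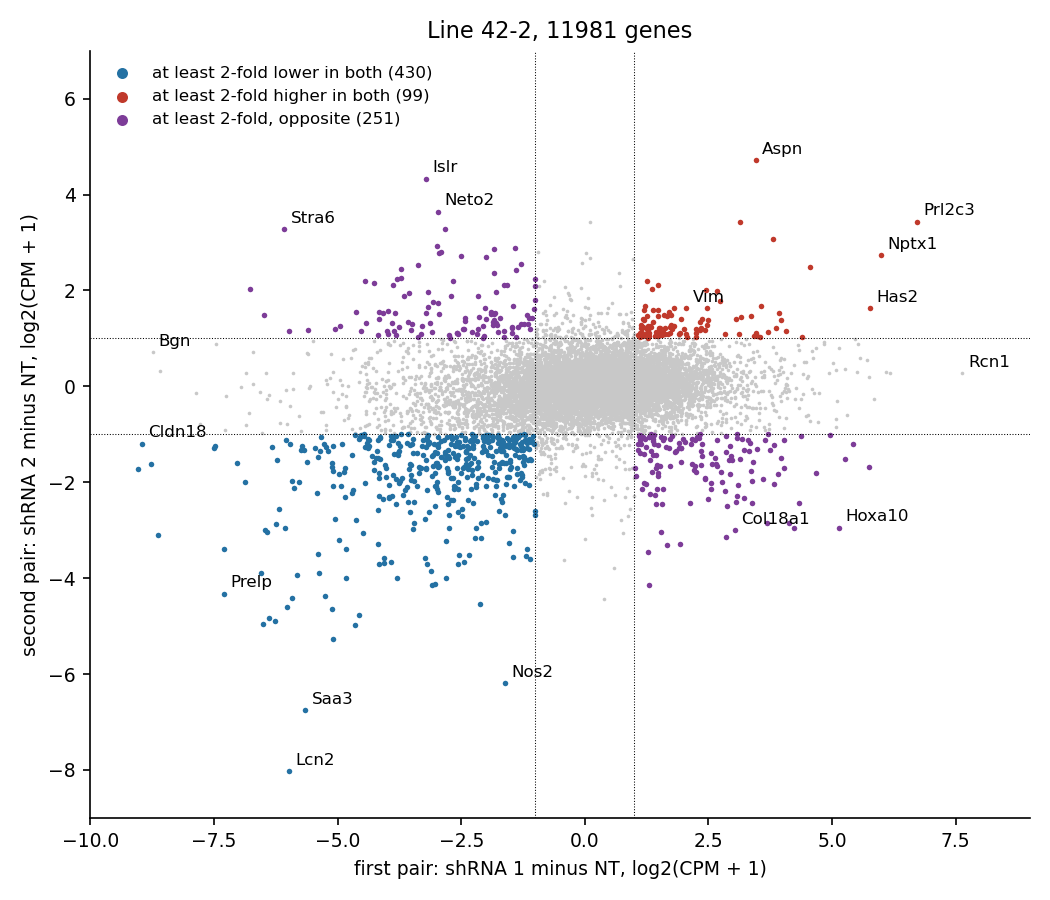
Difference between knockdown and own NT control for 11981 genes (points) in the first pair (horizontal axis, shRNA 1) and the second pair (vertical axis, shRNA 2), in log2(CPM + 1) units, with dotted lines at 2-fold. The 430 genes lower in both (blue) reach Lcn2 and Saa3, the 99 higher in both (red) are fewer, and 251 lie in the opposite corners (purple).

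Among the shared lower genes with the largest difference were 3 secreted defence and acute-phase proteins, Lcn2, Saa3 and C3. Lcn2, an iron-sequestering lipocalin, was at 793 and 761 CPM in the 2 NT controls, 11.6 CPM with shRNA 1 and 1.92 CPM with shRNA 2, differences of -5.98 and -8.02. The NT controls were close together and both knockdowns lay far below them. Saa3, an acute-phase serum amyloid A, was at 64.3 CPM in its NT control and 0.299 with shRNA 1, and at 107 CPM in its NT control and 0 with shRNA 2. C3, the central complement component, was at 1167 and 11.9 CPM in the first pair and at 355 and 10.4 CPM in the second (-6.50 and -4.96). In the limma fit the mean difference of Lcn2 was -7.00 (SE 0.61, adjusted p of 0.384) and that of C3 was -5.73 (SE 0.52, adjusted p of 0.384), so these differences did not pass. Nos2, the inducible nitric oxide synthase, was among the 6 lowest genes of the second pair (176 CPM in the control, 1.44 with shRNA 2) and was lower in the first pair too (50.6 and 15.9 CPM).

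Several neutrophil-attracting chemokines and cytokines were also lower in both pairs. Cxcl5 was at 5645 CPM in its NT control and 178 with shRNA 1, and at 2139.7 CPM in its NT control and 230.0 with shRNA 2. Cxcl1 was at 1707 and 171 CPM in the first pair and at 671 and 206 CPM in the second. Cxcl2 was at 107 and 5.00 CPM, then 51.3 and 3.02 CPM. In all 3 both knockdowns lay below both controls. Csf3, the granulocyte growth factor G-CSF, was at 151 and 16.6 CPM in the first pair and at 39.4 and 1.79 CPM in the second. Lif, an interleukin-6 family cytokine, was at 87.5 and 26.6 CPM, then 71.0 and 12.5 CPM. Nfkbiz, an inducible nuclear co-activator of NF-kB at acute-phase genes, was at 505 and 109 CPM, then 277 and 63.4 CPM, nearly the same difference in both pairs (-2.21 and -2.11).

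Over the list of 40 tested inflammatory and NF-kB genes, 24 were lower in the first pair, 20 in the second and 13 in both (against 20.6%, 6% and 3.59% of all genes; Cxcl1, Cxcl2, Cxcl3, Cxcl5, Ccl7, Csf3, Il33, Lif, Nfkbiz, Saa3, Lcn2, Lbp and C3), and 0 were higher in both. The median difference was -1.75 in the first pair and -1.05 in the second, against 0.10 and -0.02 over all genes. Both knockdowns lay below both NT controls for 26 of the 40, and for 19.5% of all genes tested. None of the 40 passed the limma test (smallest adjusted p of 0.384). Members differed: Nfkb1, a subunit of the factor itself, was at 94.5 and 68.8 CPM in the first pair and at 67.7 and 49.1 CPM in the second. Vcam1, an adhesion molecule, and Cx3cl1, a membrane-bound chemokine, were lower only in the first pair by this measure (1494 and 70.7 CPM against 489 and 696 CPM; 1245 and 78.3 CPM against 403 and 498 CPM). Cxcl10, an interferon-induced chemokine, was at 1.78 and 14.1 CPM, then 11.4 and 18.8 CPM. Cd14, the leukocyte marker with most reads, was lower in both pairs beside this group (759.7 and 9.48 CPM, then 101 and 16.2 CPM), with Ptprc at most 0.741 CPM.

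The 250 bases before the start of 3 chemokine genes that were lower in both pairs are printed because they share 1 uninterrupted NF-kB (kB) site, set in capitals; the genes were picked after their values were seen. They lie on the forward strand of GRCm38.p6 in RefSeq, Cxcl1 at chr5:90890995-90891244, Cxcl2 at chr5:90903649-90903898 and Cxcl3 at chr5:90785851-90786100, in 1 chemokine cluster, and each run ends at the base before the annotated start.
Cxcl1: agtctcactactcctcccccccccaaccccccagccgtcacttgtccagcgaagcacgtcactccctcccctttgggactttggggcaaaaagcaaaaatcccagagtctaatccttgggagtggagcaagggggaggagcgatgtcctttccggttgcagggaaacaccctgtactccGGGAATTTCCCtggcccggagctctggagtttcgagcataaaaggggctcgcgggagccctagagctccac
Cxcl2: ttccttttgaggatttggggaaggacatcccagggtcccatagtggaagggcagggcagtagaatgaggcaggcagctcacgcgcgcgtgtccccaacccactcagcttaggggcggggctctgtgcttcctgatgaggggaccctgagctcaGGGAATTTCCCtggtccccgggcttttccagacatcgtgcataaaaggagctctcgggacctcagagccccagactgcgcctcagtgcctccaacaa
Cxcl3: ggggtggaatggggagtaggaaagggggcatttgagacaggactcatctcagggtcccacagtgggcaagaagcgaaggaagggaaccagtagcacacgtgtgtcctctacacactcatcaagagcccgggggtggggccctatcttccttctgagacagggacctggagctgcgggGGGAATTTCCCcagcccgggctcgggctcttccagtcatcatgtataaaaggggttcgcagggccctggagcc
The capitals mark GGGAATTTCCC, an 11-base run that holds 2 overlapping matches to the kB consensus, beginning 71 bases before the start of Cxcl1, 97 before that of Cxcl2 and 73 before that of Cxcl3. Searched on both strands in windows of this length, the kB consensus was in 14 of 29 inflammatory genes with a RefSeq entry (48.3%), and in 7.01% of all 27025 promoters and 8.96% of those of the tested genes. That list was put together to hold NF-kB genes, so its high share says nothing about these libraries. Of the 14, only Cxcl1, Cxcl2, Cxcl3 and Lif were at least 2-fold lower in both pairs. Among the genes lower in both pairs with an entry (297 of 430) the consensus was in 31 (10.4%), and among those higher in both (68 of 99) in 7 (10.3%). Both shares lay within 2 percentage points of that of all tested genes. The AP-1 letters TGANTCA were in 7.41% of the lower and 7.35% of the higher genes, against 4.34% of tested genes. A match describes letters and not a bound site.

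Immediate early genes, the fast-induced transcription factors of growth factor signalling, were lower with both hairpins in part. Fos, the partner of Jun in the AP-1 dimer, was at 207 CPM in its NT control and 24.6 with shRNA 1, and at 346 CPM in its NT control and 18.8 with shRNA 2. Egr1 was at 2673 and 79.7 CPM in the first pair and at 1355 and 197 CPM in the second. Fosb differed by nearly the same amount in each (49.8 and 8.88 CPM, then 51.8 and 9.21 CPM). Of 18 tested members 6 were lower in both pairs (Fos, Fosb, Junb, Egr1, Egr2, Ier2) and 0 higher in both, with medians of -1.13 and -0.83. The 2-fold share of all genes was 3.59% lower and 0.826% higher in both. Both knockdowns lay below both controls for 10, and for 19.5% of all genes. Jun went the other way, at 116 and 775 CPM in the first pair and 268 and 426 CPM in the second. Ereg, an EGF receptor ligand listed with the genes of ERK signalling, was at 262 and 8.29 CPM, then 70.7 and 5.84 CPM. It was the only 1 of 15 tested members of that list at least 2-fold lower in both pairs, against 3.59% of all genes. The medians of the list were -0.51 and -0.18. At least 2-fold, 7 were lower and 3 higher in the first pair, against 20.6% and 23% of all genes. In the second pair 1 was lower and 0 higher, against 6% and 3.05%.

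Several enzymes of glutathione and redox metabolism other than Gstt1 were lower in both pairs. Mgst1, a membrane-bound glutathione transferase, was at 455 CPM in its NT control and 17.2 with shRNA 1, and at 82.6 CPM in its NT control and 1.65 with shRNA 2 (-4.65 and -4.98). Gstm5 was at 163 and 27.6 CPM in the first pair and at 54.7 and 22.3 CPM in the second, and Gstm4 was at 35.8 and 4.93 CPM, then 3.85 and 0.137 CPM. Mu-class genes are close copies, so reads may be split between them. Of 31 tested members 6 were lower in both (Gstm4, Gstm5, Mgst1, Mgst2, Gpx3, Oplah) and 0 higher in both, against 3.59% and 0.826% of all genes, with medians of -0.91 and -0.22. Other members differed little in the second pair: Gclc, the catalytic subunit of glutathione synthesis, was at 112 and 110.1 CPM there, and Gsr, which regenerates glutathione, at 299 and 262 CPM. Gstp1, the pi-class enzyme, was at 162 and 108 CPM, then 148 and 111 CPM. Xdh, xanthine dehydrogenase, was at 326 and 7.54 CPM, then 130.0 and 5.36 CPM. Sepp1, the selenium carrier selenoprotein P, was at 253 and 6.34 CPM, then 87.7 and 2.54 CPM.

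Targets of NRF2, the oxidative stress factor, were mostly lower in both pairs, mostly by small amounts in the second. At least 2-fold, 6 were lower and 5 higher in the first pair, against 20.6% and 23% of all genes. In the second pair 2 were lower and 0 higher, against 6% and 3.05%. Of 21 tested, 13 were lower in both by any amount, against 27.5% of all genes, and both knockdowns lay below both controls for 9, against 19.5% of all genes. At least 2-fold lower in both was 1 of the 21, against 3.59% of all genes: Hmox1, heme oxygenase, at 303 and 60.5 CPM in the first pair and 169 and 37.4 CPM in the second. Nqo1, a quinone reductase and a standard readout of NRF2, was at 9.88 and 157 CPM, then 10.7 and 17.9 CPM. Slc7a11, the cystine importer, was at 88.4 and 54.7 CPM, then 21.7 and 9.28 CPM. Osgin1, a stress-induced growth inhibitor, was at 113 and 35.2 CPM, then 149.5 and 82.4 CPM. The medians of the list were -0.26 in both pairs, and 0 members passed the limma test (smallest adjusted p of 0.748).

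The 14 shared lower genes with the largest difference also held membrane transporters and other single genes. Slc7a2, a cationic amino acid transporter, was at 122 and 0.896 CPM in the first pair and at 25.02 and 0.0687 CPM in the second. Slc16a3, the lactate exporter MCT4, was at 125 and 4.33 CPM, then 84.4 and 2.13 CPM. In each of these both knockdowns lay far below both controls. Tm4sf4, a tetraspan membrane protein, was at 1216 and 13.6 CPM, then 101 and 2.61 CPM. Gas1, a hedgehog co-receptor, was at 104 and 0.373 CPM, then 83.5 and 1.86 CPM. Palmd was at 68.4 and 1.05 CPM, then 40.0 and 0.0687 CPM, and Prelp, a matrix leucine-rich repeat protein, at 156 and 0 CPM, then 38.3 and 0.962 CPM. Pmaip1, the pro-apoptotic protein Noxa, was at 228 and 7.02 CPM, then 19.5 and 0.275 CPM. Of 19 tested zinc transporters, metallothioneins and their regulator, 3 zinc importers were among the shared lower genes, against 3.59% of all genes. These were Slc39a4 (515 and 8.14 CPM, then 14.3 and 0 CPM), Slc39a8 (56.8 and 2.16 CPM, then 6.16 and 0.206 CPM) and Slc39a10 (86.2 and 35.6 CPM, then 167 and 55.7 CPM). The other 16 were not among the shared lower genes, and the median over the 19 was -0.42 and -0.14. Adjusted p values of the 14 in limma were 0.384 to 0.710.

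**Figure D3:**
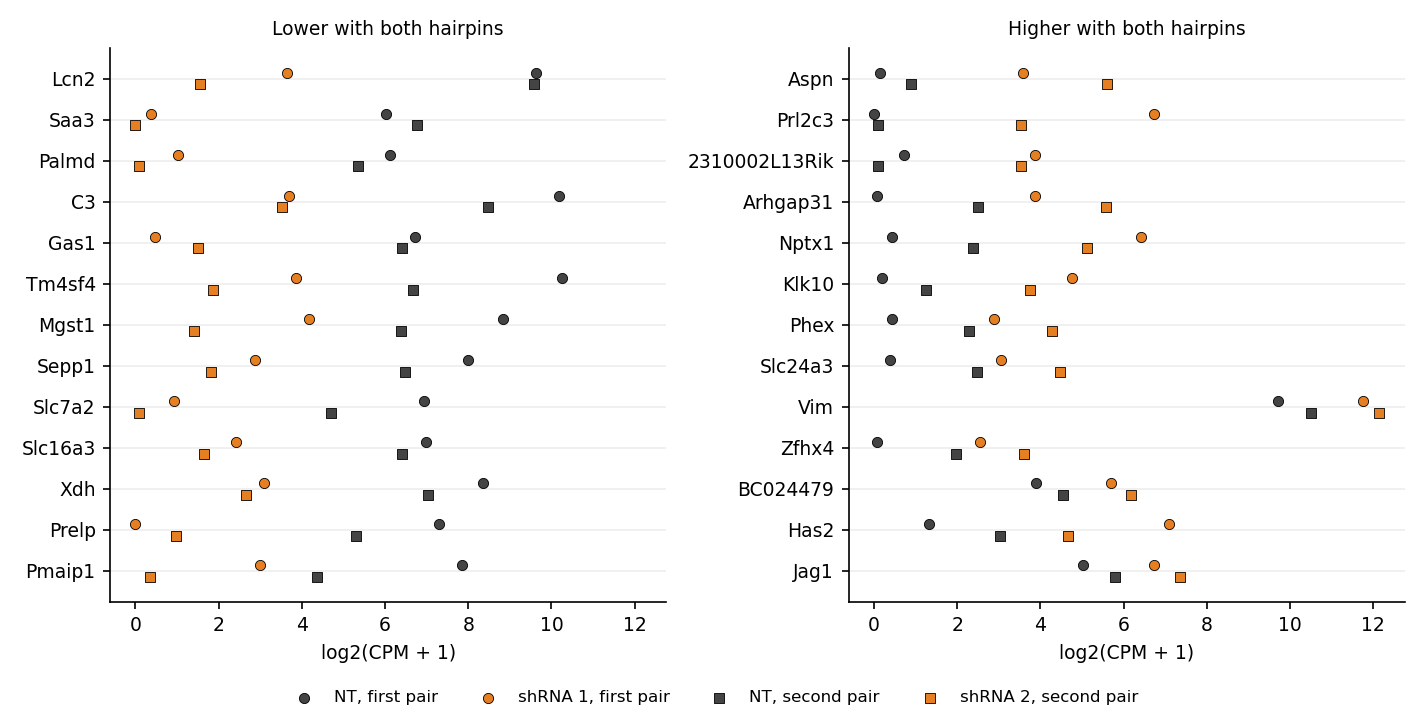
Level of 13 of the 14 genes lower (left) and 13 of the 14 higher (right) in both pairs, in log2(CPM + 1), in each of the 4 libraries of 42-2 (NT controls dark, knockdowns orange, circles for the first pair and squares for the second). By the choice of genes, the knockdowns lie to one side of their controls; the controls of Lcn2 nearly coincide (793 and 761 CPM) and those of Tm4sf4 lie apart (1216 and 101 CPM).

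Genes of gland-forming, classical pancreatic cancer were mostly lower with shRNA 1, and several were near 0 in the second control. Of 12 tested members 11 were lower in the first pair and 4 in both (Gata6, Foxa2, Cldn18, Tspan8), against 20.6% and 3.59% of all genes, with medians of -3.83 and -0.29. Cldn18, a gastric tight junction protein, was at 535 CPM in the first NT control and 0.0746 with shRNA 1, against 2.23 and 0.412 CPM in the second pair. Gata6, the transcription factor that defines this state, was at 50.9 and 2.16 CPM, then 2.77 and 0.206 CPM. Pdx1 and Cdx2 were lower only in the first pair by this measure (90.8 and 3.36 CPM against 20.2 and 20.8; 91.4 and 0.0746 CPM against 39.9 and 32.9). Ehf, an epithelial ETS factor, was at 239.7 and 1.79 CPM, then 15.0 and 0.962 CPM. Elf3, of the same family, was at 114 and 37.2 CPM, then 40.7 and 12.7 CPM. Keratins did not go together: Krt7 was lower in both pairs (342 and 145 CPM, then 20.2 and 6.53 CPM), Krt8 was at 273 and 666 CPM, then 88.2 and 7.15 CPM, and Krt19 at 254 and 69.9 CPM, then 32.0 and 169 CPM.

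The shared higher genes were fewer than the shared lower ones, 99 against 430. Aspn, a small leucine-rich proteoglycan of the matrix, was at 0.0988 CPM in its NT control and 11.0 with shRNA 1, and at 0.847 CPM in its NT control and 47.6 with shRNA 2 (3.45 and 4.72). Arhgap31, which switches off the small GTPases Cdc42 and Rac, was at 0.0494 and 13.6 CPM in the first pair and at 4.70 and 47.1 CPM in the second. Nptx1, a secreted pentraxin of neurons, was at 0.346 and 84.3 CPM, then 4.23 and 33.7 CPM. These genes were higher in both knockdowns than in both controls, and limma gave adjusted p values of 0.748 to 0.829 over the 14. Prl2c3, at 0 and 105 CPM, then 0.0770 and 10.7 CPM, has near-identical copies, and its value is uncertain. Has2, a hyaluronan synthase, was at 1.48 and 135 CPM, then 7.16 and 24.3 CPM. Klk10 (0.148 and 26.1 CPM, then 1.39 and 12.4 CPM), Phex (0.346 and 6.34 CPM, then 3.85 and 18.5 CPM), Slc24a3 (0.296 and 7.32 CPM, then 4.54 and 21.1 CPM), Zfhx4 (0.0494 and 4.85 CPM, then 2.93 and 11.2 CPM) and 2310002L13Rik (0.642 and 13.5 CPM, then 0.0770 and 10.6 CPM) were likewise below 1 CPM in the first control and higher in both knockdowns than in both controls.

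A few abundant genes were higher with both hairpins. Vim, the mesenchymal intermediate filament vimentin, was at 838 CPM in its NT control and 3476 with shRNA 1, and at 1462 CPM in its NT control and 4552 with shRNA 2. Both knockdowns lay above both controls, with a mean difference in limma of 1.84 (SE 0.77, adjusted p of 0.829). Jag1, a Notch ligand, was at 31.7 and 106 CPM, then 54.3 and 162 CPM, and BC024479 at 13.9 and 51.0 CPM, then 22.3 and 71.1 CPM. Of 23 tested mesenchymal genes 3 were higher in both (Vim, Snai1, S100a4), 1 was lower in both (Cnn1) and 3 went opposite ways, against 0.826%, 3.59% and 2.09% of all genes. Snai1, a repressor of epithelial genes, was at 5.14 and 17.7 CPM, then 17.3 and 50.5 CPM. Its relative Snai2 was at 67.1 and 1.19 CPM, then 80.1 and 193 CPM. Fibroblast markers beside these genes went apart by pair (medians over 8 tested of -1.44 and 1.02), and their part in these values was not tested.

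Of 25 tested cholesterol and fatty acid genes, 15 were higher in both pairs by any amount, against 28.5% of all genes, and both knockdowns lay above both controls for 14, against 21.2% of all genes. Lss, lanosterol synthase, was at 23.2 and 46.4 CPM, then 43.2 and 89.7 CPM. Insig1, the sterol sensor that retains the pathway's activator, was at 23.3 and 40.3 CPM, then 33.5 and 85.4 CPM. Scd1, a fatty acid desaturase, went opposite ways, at 171 and 11.6 CPM, then 23.6 and 57.0 CPM. Medians were 1.08 and 0.58, and 0 members passed the limma test (smallest adjusted p of 0.829). In the integrated stress response list (25 tested), 2 genes were at least 2-fold higher in both pairs, 1 was lower in both and 1 went opposite ways. The shares of all genes were 0.826%, 3.59% and 2.09%. By any amount 12 were higher in both and 6 lower in both, against 28.5% and 27.5% of all genes. Trib3 (17.9 and 95.9 CPM, then 36.2 and 85.2 CPM) and Mthfd2 (75.4 and 180.5 CPM, then 115 and 266 CPM) were the 2 higher genes. Vldlr, a lipoprotein receptor, was the lower one (192 and 16.4 CPM, then 33.3 and 3.37 CPM).

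Mitotic genes were higher with both hairpins, by much more in the first pair than in the second, a difference that was not tested. Of 35 tested, 32 were higher in both pairs by any amount, against 28.5% of all genes, and both knockdowns lay above both controls for 32, against 21.2% of all genes. All 35 were at least 2-fold higher with shRNA 1 (median 2.19), against 23% of all genes, and 0 were with shRNA 2 (median 0.31), against 3.05%. None passed the limma test (smallest adjusted p of 0.829). Aurka, a spindle pole kinase, was at 47.6 CPM in its NT control and 217 with shRNA 1, and at 87.5 CPM in its NT control and 164 with shRNA 2. Mki67, the proliferation antigen, was at 43.1 and 286 CPM, then 101 and 139 CPM. In the DNA replication list 31 of 41 were at least 2-fold higher in the first pair (median 1.48), against 23% of all genes. In the second pair 0 were (median 0.05), against 3.05%, and by any amount 23 were higher and 18 lower there. By any amount 23 were higher in both pairs, against 28.5% of all genes. Both knockdowns lay above both controls for 19, against 21.2% of all genes. Pcna, the sliding clamp of the polymerases, was at 22.9 and 109.7 CPM, then 72.8 and 135 CPM. The first NT control was the lowest of the 4 libraries in each of these 3 genes.

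**Figure D4:**
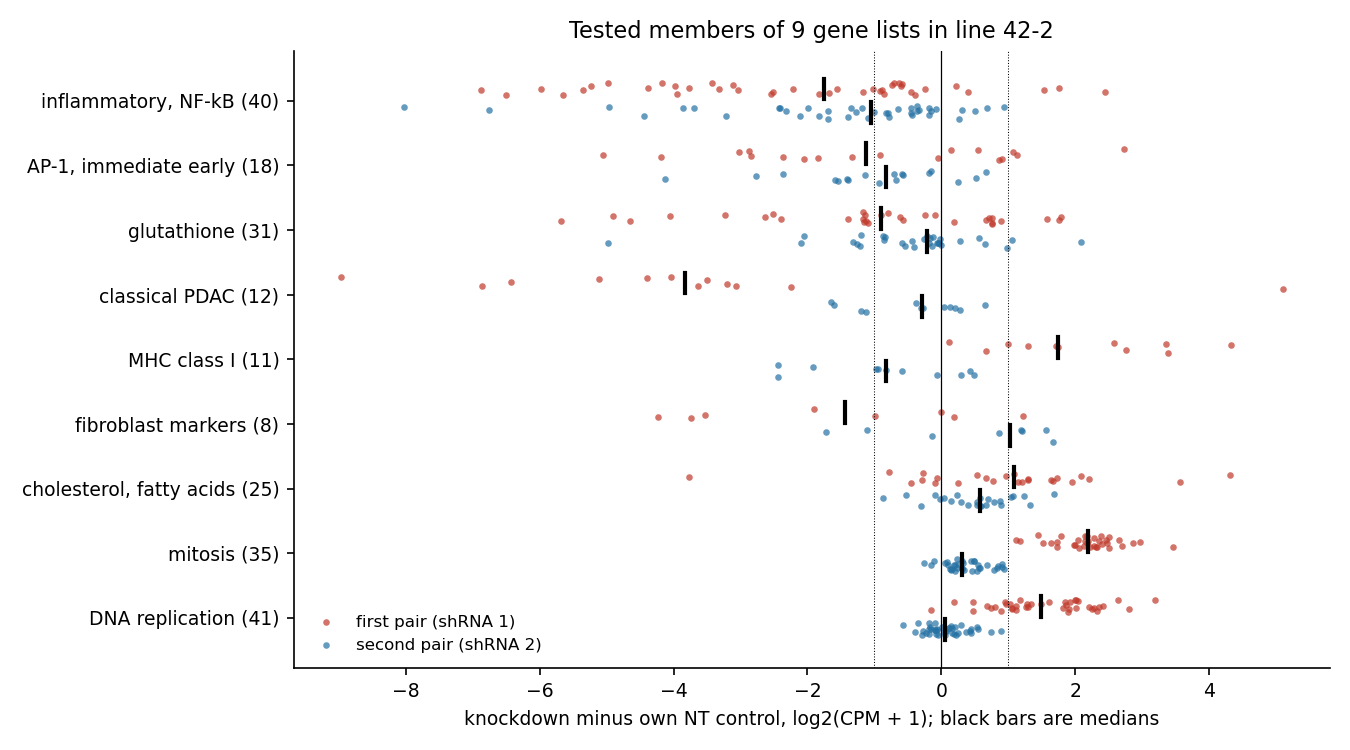
Difference between knockdown and own NT control, in log2(CPM + 1), for the tested members (points) of 9 gene lists, in the first pair (red) and the second (blue), with medians as black bars and dotted lines at 2-fold. Inflammatory genes lie on the lower side in both pairs (medians -1.75 and -1.05), and mitotic genes on the higher side in both, by more in the first (2.19) than in the second (0.31).

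MHC class I genes, which present antigen, were mostly higher with shRNA 1 and lower with shRNA 2. Of 11 tested, all were higher in the first pair by any amount, against 6383 of all 11981 genes. In the second pair 8 were lower and 3 higher (B2m, Psmb10 and Nlrc5), against 6268 and 5700 of all genes. The medians were 1.74 in the first pair and -0.83 in the second. At least 2-fold, 8 were higher in the first pair (23% of all genes were) and 3 lower in the second (6% of all genes), and 2 passed the limit in both pairs in opposite directions (2.09% of all genes). H2-K1, a classical class I heavy chain with close copies, was at 129 and 259 CPM, then 112 and 29.1 CPM. B2m, the light chain, was higher in both by less than 2-fold in the second (354 and 868 CPM, then 453 and 631 CPM). Among single genes, the homeobox genes Hoxa10 (0 and 34.3 CPM, then 6.70 and 0 CPM) and Hoxa7 (0 and 16.5 CPM, then 12.2 and 0.825 CPM) and the basement membrane collagen Col18a1 (48.4 and 406 CPM, then 121 and 14.2 CPM) were higher with shRNA 1 and lower with shRNA 2. Stra6, the retinol transporter (66.5 and 0 CPM, then 0.154 and 10.2 CPM), Islr (8.25 and 0 CPM, then 0 and 19.2 CPM) and Neto2, an accessory protein of glutamate receptors (44.7 and 4.85 CPM, then 6.01 and 86.7 CPM), were lower with shRNA 1 and higher with shRNA 2. Hairpin and pair cannot be told apart here, since each hairpin was used in 1 pair.

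The NT controls themselves lay far apart. They differed at least 2-fold in 3035 genes (25.3%), more than the 1085 in the second pair and fewer than the 5222 in the first. The first control held the gut and gastric genes Cldn18 (535 CPM against 2.23), Clca4 (890.4 against 3.54) and the carbonic anhydrase-related gene Car8 (221 against 0.308). The second held the calcium-binding protein Rcn1 (203 CPM against 0.247), the collagen Col3a1 (2681 against 23.4) and the collagen receptor Ddr2 (197 against 1.48). The genes furthest apart within the first pair were partly the same: Cldn18 was at 0.0746 CPM with shRNA 1 and Rcn1 at 246 CPM, near the 203 and 247 CPM of the second pair. Among the 430 shared lower genes the NT controls were within 2-fold in 178 (41.4%), the first was higher in 233 and the second in 19. Among the 99 shared higher genes they were within 2-fold in 60 (60.6%), and the second was higher in 35.

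The other lines, which share no library with 42-2, were compared gene by gene. Lines 42-3 and 6-2 came from lung metastases and the rest from liver metastases, and 42-3 gave 2 of the 6 sets. Of the 430 genes lower in both 42-2 pairs, 157 (36.5%) were also at least 2-fold lower in the mean of the 6 other culture sets, against 5.63% of all tested genes, and 8 were higher. Of the 99 genes higher in both, 12 (12.1%) were also higher in the mean of the other sets, against 3.35% of all, and 7 were lower. The genes lower in 42-2 thus included many that were also lower in lines with much Gstt1 to lose, though not in every set. Lines 6-3 and G45-2 kept much of their Gstt1 with shRNA 1. In 6-3 and 13-2 the NT control and the knockdowns carried different library codes, so knockdown and code cannot be told apart there. None of the 14 named lower genes was lower in all 6 other sets: Lcn2 was lower in 4 of 6 (-6.47 to 3.06) and C3 in 3 of 6 (-6.76 to 5.75). Fos was lower in 6 of 6 (-4.55 to -0.60). Of the 14 higher genes Arhgap31 (1.82 to 5.39) and Nptx1 (0.11 to 3.65) were higher in all 6 and Aspn in 2.

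Whether the difference between knockdown and control was itself another in 42-2 was tested as an interaction term over all 18 libraries. Past the threshold lay 0 of 12931 genes (0%) in limma and 0 in edgeR; 918 (7.1%) and 809 reached an unadjusted p under 0.05. Among the shared lower genes in that fit, 72 of 425 had an unadjusted p under 0.05, and among the shared higher genes 31 of 99; these genes were chosen for their difference in 42-2, so the counts support nothing. Without the second 42-2 pair limma called 12 (5 higher, 7 lower in 42-2). The smallest adjusted p was that of Etl4 (0.128), at 147 and 17.2 CPM in the first pair and 19.02 and 3.71 CPM in the second, and between -0.29 and 0.80 in the other sets. Hif1a, the hypoxia factor, was at 586 and 262 CPM, then 519.7 and 228 CPM in 42-2, with controls and knockdowns alike between pairs, and was higher in all 6 other sets (0.05 to 1.39; interaction -1.92, SE 0.41, limma adjusted p of 0.655). Wls, the Wnt carrier, was at 364 and 82.8 CPM, then 108 and 3.64 CPM (interaction -3.68, SE 0.79, limma adjusted p of 0.655).

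**Figure D5:**
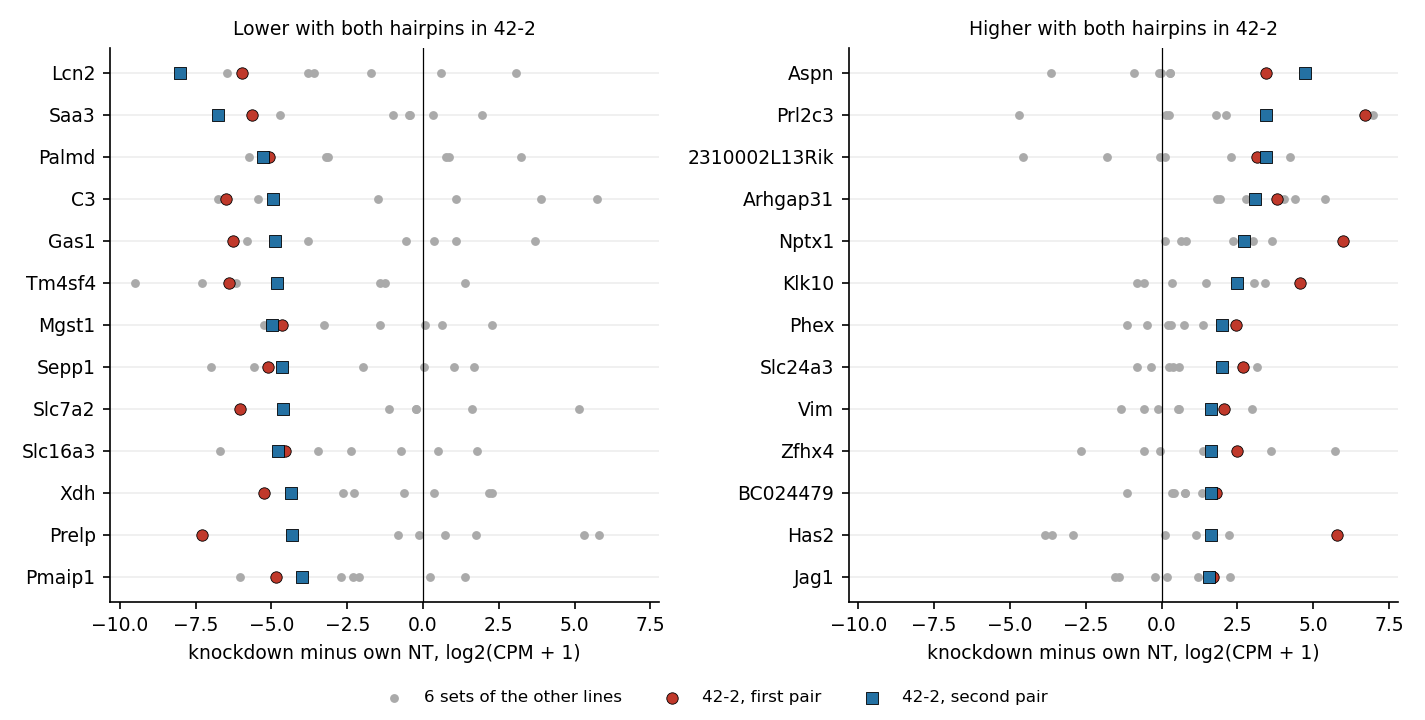
Difference between knockdown and own NT control, in log2(CPM + 1), for 13 of the 14 genes lower (left) and 13 of the 14 higher (right) in both 42-2 pairs: the first 42-2 pair (red circles), the second (blue squares) and the 6 sets of the other lines (grey). The grey points of Lcn2 run from -6.47 to 3.06, and those of Arhgap31 lie between 1.82 and 5.39.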

How the data were processed

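Values were taken as the authors deposited them, in CPM (the count of a gene divided by the depth of its library), for 16383 genes in 18 libraries; 32 symbols were repeated. Per the submitters' processing notes, the genome was mm9. TruSeq libraries were made from total RNA, per the labels' protocols. The aligner, counter and filters were unnamed (not given in the sources used here). All values (100%, tolerance 0.01 reads) were whole multiples of 1 read, which gave library totals of 8411436 to 25552912 reads. Groups and sets follow the cell line in the labels and, where a line has more than 1 NT control, the library code. The sets of 6-3 and 13-2 cross library codes.

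Genes that reached 1 CPM in 2 or more of the 4 libraries of 42-2 were tested with the trend model of limma 3.58.1 (R 4.3.3) on log2(CPM + 1) values, the pair as a block and 1 residual degree of freedom; p-values were two-sided and adjusted by Benjamini-Hochberg to a threshold of 0.05. The interaction was fitted on 18 libraries (1 CPM reached in 4 or more, culture set as a block, 1 knockdown term). edgeR 4.0.16 was run on the recovered reads as an alternative. Ratios of reads within a pair carry 95% exact intervals. On simulated data with 200 changed genes, the 42-2 fit with limma recovered 88% of 2-fold and 100% of 8-fold changes, with 17 other genes called of 11898. Recovery at the spread seen between the 4 libraries of 42-2 was not tested. In these libraries Lcn2, with a mean difference of -7.00, had a limma adjusted p of 0.384. Promoters of 250 bases came from RefSeq (GRCm38.p6), matched by symbol for 8437 of 11981 genes, and motifs were picked after the values were seen. Tables and plots used matplotlib 3.10.9, pandas 2.3.3, scipy 1.17.1 and numpy 2.4.6 in Python 3.11.15.

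The line, the gene lists and the tests were chosen with earlier results of these data known. By rule the text names Gstt1, Gstt3 and identity transcripts; among genes reaching 10 CPM, the 14 of each direction with the largest smaller difference of the 2 pairs, and 6 of each opposite orientation; the 6 furthest genes of each pair and of the NT controls; up to 4 members of each list; and 10 genes of the interaction, of which some are given. A few named genes and alleles are left out and not reported here. Further members of the lists were chosen after their values were seen. Alternatives were the pseudocount, the filter, 2 rescalings, robust variance, edgeR, no block, the fold limit, and leaving out each pair or set.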

Additional observations from a re-analysis of the deposited data

Results flagged for a closer look

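The pairs went opposite ways in 12 genes, chosen by the smaller of their 2 differences and not by the distance between the pairs; the difference between the pairs was not tested, since each pair holds 1 knockdown and 1 control. As the second pair's log2(CPM + 1) difference minus the first's, it was -6.05 for Col18a1, -7.17 for the small heat shock protein gene Hspb8, -8.08 for Hoxa10, -6.99 for Hoxa7, -6.55 for Lingo3 and -6.01 for the ephrin receptor gene Epha4, all higher with shRNA 1 and lower with shRNA 2. It was 9.36 for Stra6, 7.54 for Islr, 6.61 for Neto2, 5.92 for the calcium channel subunit gene Cacnb2, 6.11 for Nrgn and 5.70 for the semaphorin receptor gene Plxna2, all lower with shRNA 1 and higher with shRNA 2.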

How the results depend on the processing

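The limma count for knockdown in 42-2 was 0 under both other pseudocounts, both other filters, both rescalings, robust variance and edgeR, and 0 without the replicate block of pairs; leaving out each pair gave 0 to 18. The interaction count was 0 under the same alternatives, 0 without the block of culture sets, and 0 to 12 when each set was left out. Numbers of shared genes moved with the fold limit: at 1.5-fold, 463 were higher in both pairs, 874 lower and 738 opposite, and at 4-fold 7, 106 and 38. The opposite genes numbered 162 with a pseudocount of 2 and 158 with a filter of 5 CPM. The other 50 values of counts stayed within 1.5 times. The 215 single-gene results gave 999 values, and none was marked as reversed. Among the 76 that are differences between 2 libraries, 115 values moved beyond counting error, and a reversal counted only for differences of at least 2-fold. The 139 fitted results were compared only by sign and by the side of the adjusted p threshold. Their size could therefore shift unmarked: the mean difference of Prl2c3 was 5.08 in limma and 10.1 in edgeR. With 1 residual degree of freedom and 1 library per hairpin, the spread within a hairpin could not be estimated, and genes under 0.148 to 0.231 CPM lie below 3 reads.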

Other observations

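The first pair held more genes at least 2-fold apart than the second, so counts of further gene groups are given beside the share of all genes. Of 24 tested TGF-beta and BMP genes, 12 were at least 2-fold lower with shRNA 1 (20.6% of all genes were) and 1 with shRNA 2 (6% of all genes); Bmp2 differed by -4.44 and -0.83, and Timp3, a metalloprotease inhibitor of another list, by -6.57 and -0.11. The list of Timp3 held 17 tested matrix proteases and inhibitors, with medians of 1.30 and -0.43. At least 2-fold, 10 were higher and 4 lower with shRNA 1 (23% and 20.6% of all genes were). With shRNA 2, 1 was higher and 5 lower (3.05% and 6% of all genes). Only 1 was lower in both pairs (3.59% of all genes were). It was the collagenase gene Mmp13, at 94.6 and 5.82 CPM in the first and 56.0 and 2.54 CPM in the second. Of 19 polycomb genes 7 were at least 2-fold higher with shRNA 1 (23% of all genes were) and 1 with shRNA 2 (3.05% of all genes); that 1 was Bmi1, a subunit of a polycomb repressive complex, at 61.2 and 114 CPM, then 50.2 and 114 CPM, and higher in all 6 other sets (0.58 to 1.19). Of 52 oxidative phosphorylation genes 12 were higher in the first pair, near the share of all genes (23%), and 0 in the second. Chac1, a glutathione-degrading stress gene, was at 24.7 and 41.1 CPM, then 23.4 and 103 CPM, and Ddit3, the stress factor CHOP, at 36.9 and 54.3 CPM, then 48.7 and 166 CPM.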
